A study of Drosophila melanogaster with 4 samples.

Results

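Summits of Dam-Pr-set7 that lie deep inside long genes made up 1682 of the 7157 summits (23.5%) in the deposited lists of 2 samples. They were chosen by position alone: inside the span of a protein-coding gene of 10000 bp or more, and more than 2000 bp from both ends of that gene and from either end of any other protein-coding gene. Replicate 1 held 626 of them among 2876 summits and replicate 2 held 1056 among 4281. All lay on the 6 chromosome arms 2L, 2R, 3L, 3R, 4 and X, which carried 2856 and 4240 summits and are the base of every share below.

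Pr-set7 (SETD8) is the methyltransferase that places a single methyl group on lysine 20 of histone H4, a mark tied to chromosome compaction, replication and the passage through mitosis. Long genes of Drosophila are to a large part genes of development and of the nervous system, and their introns are known to hold enhancers, alternative promoters and nested small genes. A summit far from any annotated gene end therefore sits in a part of the genome that a description by gene ends leaves out.

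Both samples were larvae that expressed UAS-Dam-Pr-set7 (construct pUASTattB-LT3-NDam-Pr-set7) under grh-Gal4, and the 2 matching controls expressed UAS-Dam under the same driver. Eggs were collected over 6 h and kept at 25 °C, and hatched larvae spent 24 h at 29 °C. The Dam methylase marks GATC motifs near the fusion protein in the cells in which grh-Gal4 is active. The labels name these cells neural stem cells, a type set by the driver, since no sort of cells is described. How many larvae were pooled is not stated, and a list of summits gives no marker expression against which the cell type could be checked. Summits of the UAS-Dam controls were not analysed here, and no background of Dam itself was taken off here. Whether the submitters' summit calls used the controls is not given in the sources used. Positions of GATC motifs were not used here.

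Each summit has 1 value, the height of the fragment pileup at its position, which is not scaled to depth. Over all arm summits the median height was 42 fragments in replicate 1 and 37 in replicate 2. Read depth is unknown. Classes of summits are therefore compared by rank within a replicate, and heights of both replicates set side by side are unscaled values whose difference can include depth. The design text of the series gives 2 batches with 1 Dam-Pr-set7 sample each, and a difference between batches cannot be told apart from one between samples. Whether the samples were separate cultures is not stated. With lists from 2 samples of a single group no test between groups exists; values of both replicates are set side by side, and the 95% exact (Clopper-Pearson) intervals cover counting error only.

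The inside of long genes was the largest class of arm sequence and held fewer summits than its length. Positions that meet the rule covered 50.6 Mb, or 37.9% of the arms, and are called deep territory from here on. Replicate 1 had 21.9% of its summits there (interval 20.4 to 23.5%) and replicate 2 had 24.9% (23.6 to 26.2%). Per length this was 12.4 and 20.9 summits per Mb, against 21.4 and 31.7 per Mb over whole arms, a ratio of 0.579 (interval 0.539 to 0.620) and 0.657 (0.623 to 0.692). Sequence within 2000 bp of a gene end, of nearly equal extent at 48.8 Mb, carried 37.7 and 51.7 summits per Mb. Sequence between genes and over 2000 bp from their ends was close to deep territory, at 11.1 and 19.1 per Mb.

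Within long genes the density was highest close to the ends and lowest beyond 50000 bp, with smaller differences between. In the first 250 bp from the nearest protein-coding gene end, positions inside long genes carried 39.1 summits per Mb in replicate 1 and 44.7 in replicate 2. Between 1000 and 2000 bp this was 19.8 and 24.1 per Mb. From 2000 to 3000 bp, where the deep summits begin, it was 13.8 and 25.5 per Mb, and from 20000 to 50000 bp still 12.2 and 19.2 per Mb. In replicate 2 the density at 1000 to 2000 bp and at 2000 to 3000 bp had overlapping intervals (20.3 to 28.5 and 21.3 to 30.3 per Mb). Beyond 50000 bp it was 3.38 per Mb in replicate 1 (15 summits) and 6.30 in replicate 2 (28 summits).

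**Figure D1:**
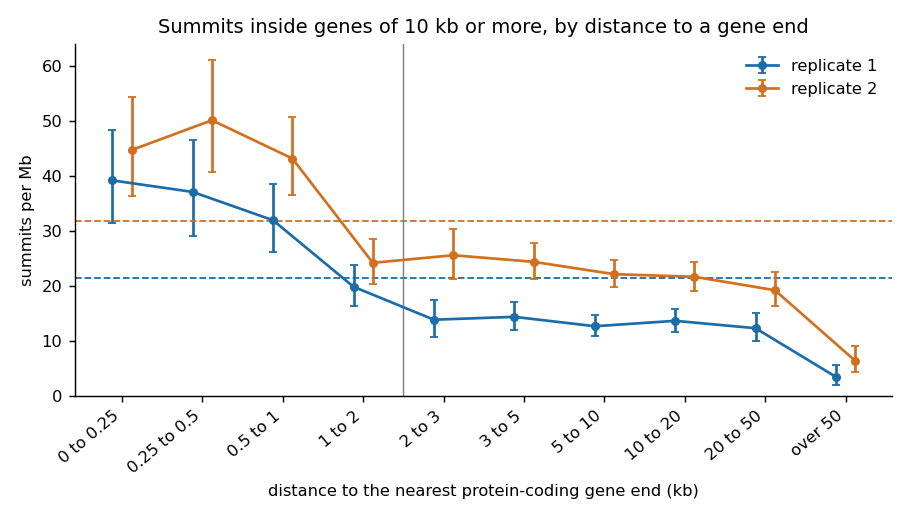
Summits per Mb (vertical axis) inside protein-coding genes of 10 kb or more, by distance to the nearest protein-coding gene end in kb (horizontal axis), for replicate 1 and replicate 2 with 95% exact intervals. Points right of the grey line are deep summits, and dashed lines mark whole arms at 21.4 and 31.7 per Mb; the first bin stands at 39.1 and 44.7 and the last at 3.38 and 6.30.

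The low density beyond 50000 bp was found in sequence next to the centromeres. Of the 4.44 Mb at that distance, 3.94 Mb lay in the 5 Mb of 2L, 2R, 3L, 3R and X nearest the centromere, a window chosen after the values were seen, and held 6 and 5 summits. The other 0.508 Mb held 9 and 23 summits, or 17.7 and 45.2 per Mb. Most of these summits lay in the genes bru3, heph, hth and Sema1a, and no interval was computed for these rates. Over all of deep territory the density was 5.56 and 8.29 per Mb in that window and 13.9 and 23.6 per Mb in the rest of the arms, where whole-arm density was 23.7 and 35.6 per Mb. Of the 67 genes with over 100 kb of deep territory, 21 lay in the window, and 10 of the 12 that had no deep summit were among these.

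The longest genes show this. Myo81F on 3R, a myosin gene that spans 1966 kb next to the centromere, had 1 deep summit in replicate 1 with 15 fragments and 0 in replicate 2. Pzl (709 kb, 3R), the mechanosensitive channel gene Piezo-like, had 0 and 1, the latter with 23 fragments. In lovit (434 kb, 3L), a gene of visual transmission, neither replicate had a deep summit. CG17684 (396 kb, 2R) had 2 in each replicate, of which 1 pair, at 1997674 and 1997671, was 3 bp apart with 18 and 21 fragments. Among the 5 longest, kirre (394 kb, X), which encodes a cell adhesion protein of muscle fusion and of neurons, had the most deep summits. It had 8 and 7, none above 42 fragments, or 26.4 and 23.1 per Mb of its deep territory. Over all deep territory the values were 12.4 and 20.9 per Mb. The longest genes without any deep summit were lovit, DIP-lambda (379 kb), Snap25 (225 kb), l(3)80Fg (216 kb) and Gprk1 (149 kb), of which Snap25 encodes a synaptic vesicle fusion protein.

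Deep summits were lower than those near gene ends. In replicate 1 their heights had quartiles of 23, 36 and 60 fragments, against 28, 47 and 80 within 2000 bp of a gene end. In replicate 2 the quartiles were 20, 31 and 50.3 fragments against 26, 43 and 75. Ranked among all arm summits of the same replicate, the median deep summit stood at percentile 42.1 and 41.1, and the median summit near a gene end at 54.8 and 57.2. Low rank was not particular to deep summits. Over 2000 bp from gene ends, the median summit between genes stood at 36.4 and 35.6, and that inside shorter genes at 43.5 and 42.8. The highest 10% of each list held 40 deep summits (6.39% of them) in replicate 1 and 58 (5.49%) in replicate 2. The rank also went down with distance, from a median percentile of 51.7 and 47.5 at 2000 to 3000 bp to 34.8 and 37.5 at 20000 to 50000 bp. On either side of the limit of 2000 bp the median height in replicate 1 was 41 fragments for 43 summits at 1500 to 2000 bp and 42.5 for 32 summits at 2000 to 2500 bp. In replicate 2 it was 47 fragments for 53 summits outside the limit and 38 for 65 inside it.

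**Figure D2:**
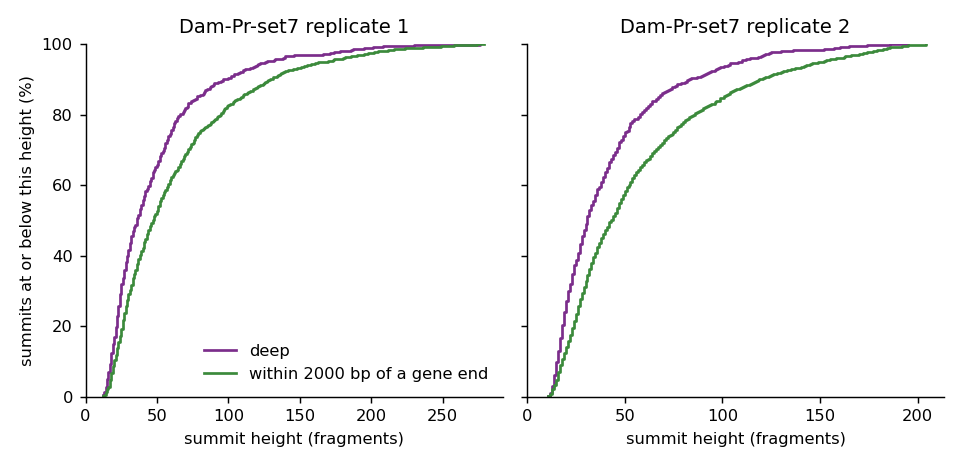
Share of summits in percent (vertical axis) at or below a given height in fragments (horizontal axis) for summits deep inside long genes and for those within 2000 bp of a gene end, in each replicate. The deep curve lies to the left in both panels, with medians of 36 against 47 fragments in replicate 1 and 31 against 43 in replicate 2.

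Part of the deep summits had a partner in the other replicate, and most places were seen in 1 replicate only. Of the deep summits, 412 of 626 in replicate 1 (65.8%, interval 62.0 to 69.5%) and 414 of 1056 in replicate 2 (39.2%, 36.2 to 42.2%) had a summit of the other replicate within 500 bp. Over all arm summits these shares were 69.0% and 46.5%. The median distance between partners was 23 bp, and 329 of the 412 pairs seen from replicate 1 lay within 50 bp. Among summits of like height the paired shares of deep and other arm summits lay close to each other, with overlapping intervals in each class. In the lowest 25% of heights of replicate 1, 56.9% of deep and 58.2% of other arm summits were paired, and in the highest 25% 84.8% and 81.6%. The widest gap was between the median and the upper quartile of replicate 1, with 65.4% (interval 57.4 to 72.8%) against 73.4% (69.5 to 77.0%). In replicate 2 the lowest 25% gave 15.5% and 16.5%, and the highest 25% 76.2% and 79.8%. Chained over both replicates within 500 bp, the 1682 summits marked 1271 places, of which 410 (32.3%) held summits of both.

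Heights of partners, where there was one, went together in rank. Over the 412 pairs the Spearman rank correlation was 0.867, against 0.883 over all pairs on the arms, as a description of pairs that share 2 libraries. The height in replicate 2 was 1.14 times that in replicate 1 at the median, for deep pairs and for all pairs. In 392 of the 412 pairs (95.1%) the unscaled heights were within a factor of 2.

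The 12 host genes with the highest paired deep summits included transcription and chromatin factors, kinases and genes known only by number. At sr, the Egr-type transcription factor Stripe, the pair was 202 fragments high in replicate 1 (18121596 on 3R) and 186 high in replicate 2 (18121572). At osa, a subunit of the Brahma chromatin remodelling complex, it stood at 17703918 on 3R with 187 fragments and at 17703914 with 177. At tara, which encodes the Trithorax group protein Taranis, it stood at 16247229 on 3R with 166 and at 16247212 with 170 fragments. In these 3 genes, 30.5 to 44.8 kb long, the paired summit was the single deep summit of replicate 1.

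Among the other hosts of that rank, elav, the RNA-binding protein of neurons, had its pair at 520551 and 520567 on X with 166 and 186 fragments. The span of arg, the arginase gene, covers the same positions, so elav and arg share this pair. Alk, a receptor tyrosine kinase that sustains neural stem cell growth under poor nutrition, had 276 fragments at 16629593 on 2R in replicate 1 and 136 at 16629568 in replicate 2, and a further pair of 70 and 96 fragments. SKIP, which encodes an interactor of the Shal potassium channel, had 260 fragments at 22137143 on 3R and 152 at 22137144, 1 bp apart. Eip63E, an ecdysone-induced cyclin-dependent kinase, had 195 fragments at 3545299 on 3L and 160 at 3545301. The scaffold gene gukh had 174 and 165 fragments. The remaining hosts were CG31688 (208 and 174 fragments), CG42748 (186 and 195) and CG43693 (187 and 167).

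**Figure D3:**
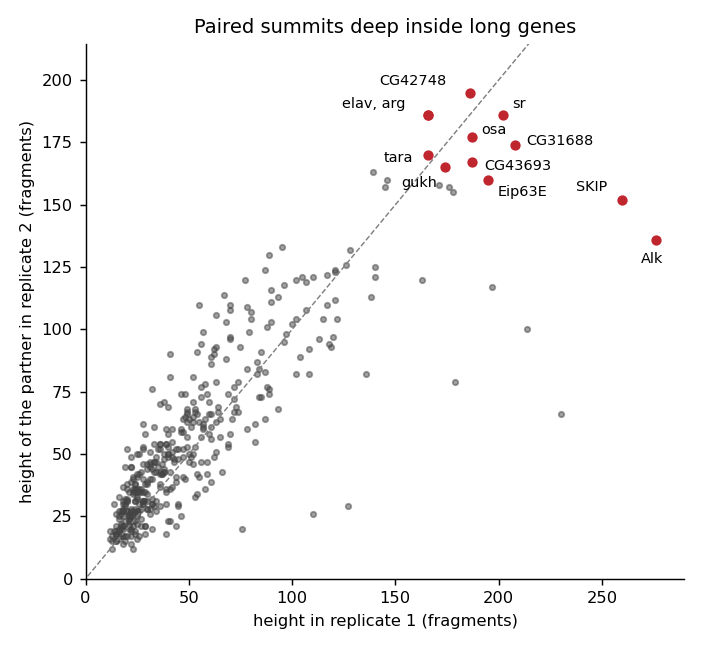
Height in fragments of each deep summit of replicate 1 that has a summit of replicate 2 within 500 bp (horizontal axis) against the height of that partner (vertical axis), with equality dashed. Red points are the pairs of the 12 host genes named in the text, from sr with 202 and 186 fragments to Alk with 276 and 136.

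At the level of genes, a deep summit in both replicates was seen in 369 of 1961 eligible long genes. Of the 1976 long genes on the arms, these 1961 have any deep territory, and the share over all of them, 18.8%, is the background for the lists below. With the stricter demand that deep summits of both replicates lie within 500 bp the number was 317, or 16.2%. A further 354 genes had deep summits in 1 replicate only, 76 in replicate 1 and 278 in replicate 2, and 1238 (63.1%) had none. Because genes can overlap, 70 deep summits were counted for more than 1 host. Most hosts had a single deep summit in a replicate, with 320 of 445 hosts in replicate 1 and 403 of 647 in replicate 2, whereas 47 and 96 hosts had 3 or more.

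Hosts were long. The share of genes with a deep summit in both replicates went from 1.79% of 112 genes with up to 5 kb of deep territory to 14.2% of 572 genes with 10 to 20 kb, 53.9% of 167 genes with 50 to 100 kb and 65.7% of 67 genes above that. Summits per Mb did not follow, with 15.3 and 26.2 at 10 to 20 kb, 14.8 and 24.8 at 50 to 100 kb and 9.20 and 15.2 above 100 kb. Outside the 5 Mb nearest the centromeres the last class had 15.0 and 25.5 per Mb, and 35 of its 46 genes had deep summits in both replicates. Density had no single order by the number of RefSeq transcripts. Between 10 and 20 kb of deep territory genes with 8 or more transcripts had 12.6 and 22.3 deep summits per Mb, against 16.5 and 28.5 for genes with 1 to 3. Between 20 and 50 kb the values were 11.2 and 21.9 against 10.997 and 18.5 per Mb. Above 50 kb they were 15.4 and 27.4 against 7.94 and 12.1 per Mb. The genes with few transcripts there include Myo81F, Pzl, lovit and DIP-lambda next to the centromeres, and a split by region was not made. Up to 10 kb the values were 21.3 and 18.6 against 10.4 and 21.2 per Mb. Over all eligible genes they were 14.1 and 24.9 against 10.4 and 17.6 per Mb.

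Summits at a gene's own ends were about as frequent with deep summits as without. Of the 369 genes with deep summits in both replicates, 61 (16.5%) also had a summit within 1000 bp of an end in both, against 321 of all 1961 (16.4%) and 199 of the 1238 without deep summits (16.1%). In 242 of the 369 (65.6%) no summit of either replicate came within 1000 bp of the gene's ends, and a count made at gene ends does not reach these genes. Among all eligible genes 69.7% had no such summit.

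Hox and patterning transcription factors, which set segment and tissue identity, had the densest deep summits of 15 gene lists in both replicates. Their 26 eligible members carried 24 and 46 deep summits, or 30.0 and 57.6 per Mb, against 12.4 and 20.9 over all deep territory. Without Antp, the member with the most over both replicates together, it was 27.0 and 45.4 per Mb. In replicate 1 hth had more than Antp, with 6 against 5. The summits were gathered in few members: 8 of 26 (30.8%, interval 14.3 to 51.8%) had deep summits in both replicates, where genes with as much deep territory gave 23.3%, and 12 of the 26 had none. The interval includes both 23.3% and the background of 18.8%.

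Antp, the Hox gene of the second thoracic segment, had 5 deep summits in replicate 1 and 14 in replicate 2 along 103 kb of 3R. This was the most of any gene in replicate 2 and in the sum of both, whereas in replicate 1 kirre had the most with 8. The heights were 119, 25, 14, 72 and 45 fragments in replicate 1, in order of position, and from 14 to 97 fragments in replicate 2. Of those in replicate 1, 4 had a partner within 500 bp, the highest at 6912020 and 6912026 with 119 and 93 fragments. The highest deep summit of replicate 2, with 97 fragments at 6991945, lay 647 bp from the nearest of replicate 1.

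The Hox cofactor gene hth had 6 and 8 deep summits along 132 kb of 3R, of which 2 in replicate 1 were paired. Its highest summit of replicate 1, with 112 fragments at 10571422, had no partner, and the highest of replicate 2, with 97 at 10611821, met 70 fragments at 10611858. The Iroquois gene mirr had 146 fragments at 12700436 on 3L in replicate 1 and 160 at 12700439 in replicate 2, the highest pair of the list.

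The bithorax complex on 3R carried several deep summits. Ubx had 3 in replicate 1 and 9 in replicate 2, with heights of 24 to 58 and 16 to 49 fragments, and 1 pair. MSAmiP, annotated as a gene of a male-specific micropeptide, spans sequence between abd-A and Abd-B. It had 5 and 9, none above 33 fragments, and all 5 of replicate 1 were paired. Abd-B had 1 in each, with 57 and 62 fragments, 23 bp apart. For abd-A, named after its values were seen, there were 3 and 5, with the highest at 59 and 47 fragments. In the Antennapedia complex Scr and Dfd had 0 in both replicates. There lab had 1 in replicate 1 only, with 28 fragments, and pb 1 in replicate 2 only, with 21. These genes were also picked after the fact.

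**Figure D4:**
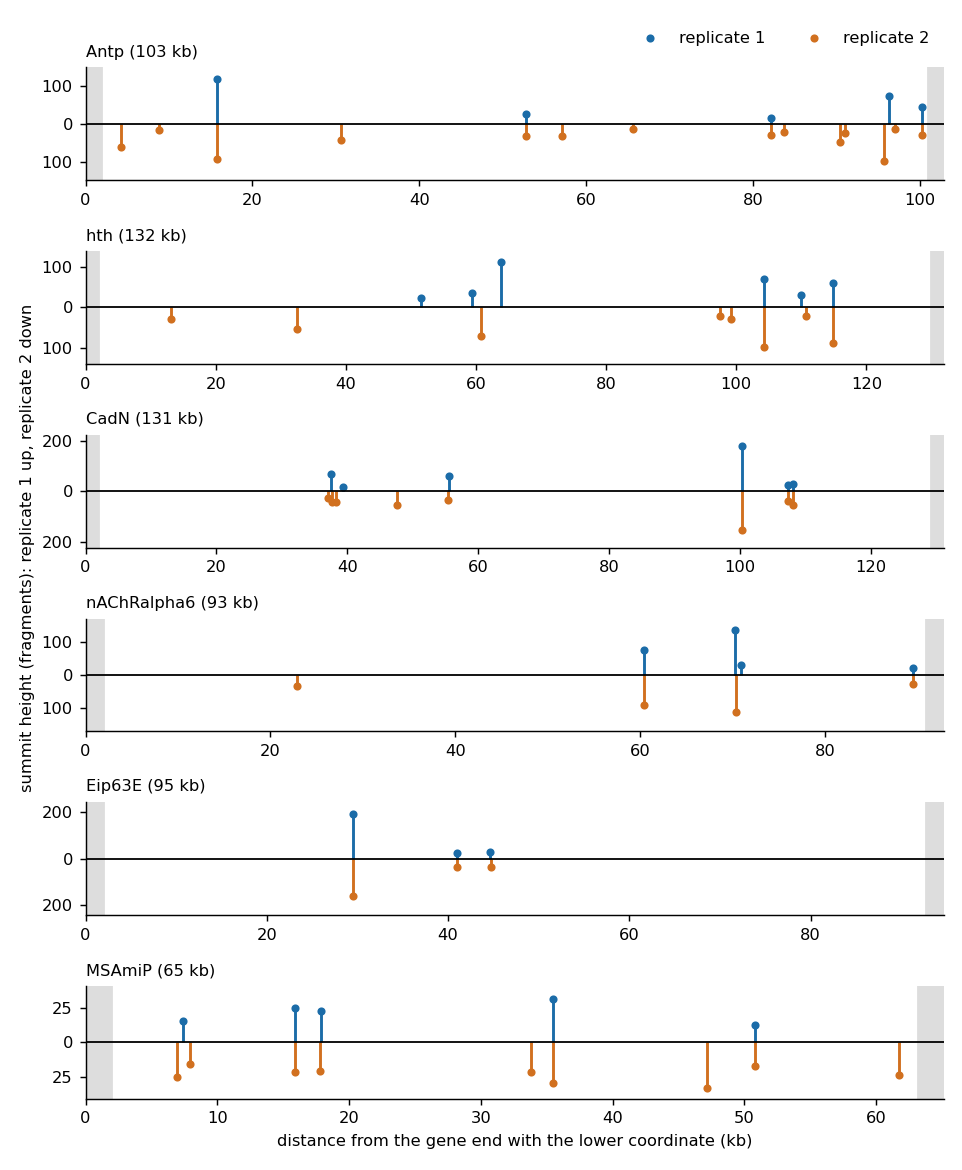
Deep summits along 6 host genes as lines whose length is the height in fragments, replicate 1 upward and replicate 2 downward, against distance in kb from the gene end with the lower coordinate; grey bands are the outer 2 kb, and positions near ends of nested genes are left out by the rule. Antp has 5 and 14 summits, hth 6 and 8, CadN 6 and 8, nAChRalpha6 4 and 4, Eip63E 3 and 3 in matching positions, and MSAmiP 5 and 9.

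Genes of temporal patterning and neural stem cell identity were hosts in 7 of 17 eligible cases (41.2%, interval 18.4 to 67.1%), where like territory gave 28.3%. The gene chinmo, whose level sets early and late fates of neurons, had 110 fragments at 1657057 on 2L and 121 at 1657059. The POU factor gene pdm2 had 90 fragments at 12681871 on 2L and 103 at 12681884. At pros, the factor that turns off the stem cell programme in daughter cells, the highest pair had 72 and 77 fragments, and 3 deep summits were found in each replicate. On chromosome 4, ey, the Pax6 homologue, had 41 fragments at 717543 and 90 at 717557. The driver's namesake grh had 0 deep summits in replicate 1 and 2 in replicate 2, with 35 and 49 fragments. The ecdysone-response factor gene br (Broad) had none in 85.7 kb of deep territory. Of the temporal list nub, svp and dac, named after their values were seen, had none either.

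Genes of the ecdysone response, the steroid signal of moulting, and nuclear receptors had deep summits in both replicates in 8 of 18 (44.4%, interval 21.5 to 69.2%), against 33.8% at like territory. In all 8 the replicates met within 500 bp. The receptor gene EcR had 78 and 19 fragments in replicate 1 and 109 and 45 in replicate 2, at positions 30 and 59 bp apart on 2R. The orphan receptor gene ftz-f1 had its highest pair at 18771928 and 18771945 on 3L with 163 and 120 fragments. Eip75B had 34 and 36 fragments in replicate 1, met by 43 and 42 in replicate 2, and an unpaired 19. The coactivator gene tai had 36 and 52 fragments, 1 bp apart, and Eip63E all 3 of its summits in pairs.

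RNA-binding and splicing regulators had the highest share of the lists, 12 of 23 (52.2%, interval 30.6 to 73.2%), where like territory gave 38.3%. Of their deep summits, bru3, a Bruno family gene of 281 kb on 3L, held 3 in replicate 1 and 11 in replicate 2. Its single pair, at 13671618 and 13671635, stood at height percentiles 86.7 and 85.3, and 9 of the 11 had 24 fragments or fewer. At heph, the polypyrimidine tract binding protein gene, 2 of 3 summits of replicate 1 were paired, the higher at percentiles 78.8 and 89.6. The translational repressor gene pum had 102 fragments in replicate 1 and 82 in replicate 2 at positions 7007 bp apart, so it counts as a host in both without a pair.

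Axon guidance and cell adhesion genes, the largest list, had 19 of 49 (38.8%, interval 25.2 to 53.8%) beside 34.8% at like territory. The N-cadherin gene CadN had 6 deep summits in replicate 1 and 8 in replicate 2 on 2L. Of the 6, 5 were paired, the highest at 17747360 and 17747337 with 178 and 155 fragments. The guidance ligand gene Sema1a had 96 and 118 fragments at its pair, and the Slit receptor gene robo2 56 and 94, 1 bp apart. Sema2b had 3 and 6 deep summits, with 2 pairs, of which the lower had 40 and 50 fragments. Fas2, an adhesion gene with 1 deep summit per replicate, had 38 fragments at 4176649 on X and 43 at 4176606.

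Ion channels and neurotransmitter receptors had 11 of 44 (25.0%, interval 13.2 to 40.3%), with 24.2% at like territory. The nicotinic receptor gene nAChRalpha6 had 75, 138, 31 and 20 fragments in replicate 1 and 33, 93, 113 and 27 in replicate 2, and 3 of the 4 positions were shared. Its relative nAChRalpha3 had 108 and 82 fragments. The GABA receptor gene Rdl had 88 and 101, and the potassium channel gene Shal had 63 and 63 at positions 1 bp apart.

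Signalling genes were mixed. Wnt and Wingless genes had 5 of 16 (31.2%, interval 11.02 to 58.7%), with 26.3% at like territory. The Nemo kinase gene nmo had 5 deep summits in replicate 1, of which 4 met the 4 of replicate 2, the highest with 113 and 96 fragments. The casein kinase gene gish had 121 fragments at 16274615 on 3R and 124 at 16274619. This pair lay 2163 and 2167 bp from the nearest gene end, just past the limit of 2000 bp. The receptor gene fz had 42 fragments in replicate 1, met 53 bp away by 60 fragments, among 4 summits in replicate 2. The highest of these 4, with 92 fragments, was 20132 bp from the nearest of replicate 1. The glypican gene dally had 1 pair of 28 and 30 fragments, and the TCF gene pan on chromosome 4 had 0 and 2. The beta-catenin gene arm spans 9246 bp and is not a long gene here.

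Notch and EGFR genes had 4 of 12 (33.3%, interval 9.92 to 65.1%), with 23.7% at like territory. The gene numb, a Notch inhibitor of asymmetric division, had 117 fragments at 9442885 on 2L and 122 at 9442881. These summits were also just past the limit of 2000 bp, at 2145 and 2141 bp from the nearest gene end. The Notch coactivator gene mam (Mastermind) had 120 fragments at 14006157 on 2R and 97 at 14006168. At sty, the Ras pathway inhibitor Sprouty, both summits of replicate 1 were paired, the higher with 115 fragments at 3412088 on 3L. At pnt the summits of the replicates, with 36 and 16 fragments, were not paired.

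Insulin, TOR and cAMP genes had 6 of 16 (37.5%, interval 15.2 to 64.6%), with 28.6% at like territory. The insulin receptor gene InR, whose signal drives reactivation of neural stem cells, had 43 fragments at 21581687 on 3R in replicate 1, met by 48 at 21582068 in replicate 2, 381 bp away. Replicate 2 had 2 more, with 42 and 62 fragments. The kinase anchor gene rg had 4 and 6 deep summits, with all 4 paired and 82 and 55 fragments at the highest. The phosphodiesterase gene dnc had 65 and 64 fragments at its pair. For Pka-R2, a regulatory subunit of the cAMP-dependent kinase, the highest deep summits of 18 and 59 fragments were not partners. The one of 18 fragments lay 2020 bp from a gene end. A summit of replicate 2 was 43 bp from it but does not count as deep. Of the BMP, Hedgehog and Hippo genes 1 of 14 (7.14%, interval 0.181 to 33.9%), where like territory gave 2.79 genes, was a host in both replicates, namely shn, with 20 and 31 fragments at the same base, 11185492 on 2R.

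Chromatin regulators had 6 of 18 (33.3%, interval 13.3 to 59.0%), with 20.4% at like territory. Beside osa they included Psc of the Polycomb repressive complex with 54 and 66 fragments, lola with 60 and 66, and jing with 4 deep summits in each replicate, 3 of them paired and the highest with 62 and 90. Cell cycle genes are mostly short, and 5 were eligible. Of these, the growth regulator gene Myc had 28 fragments at 3380536 on X and 35 at 3380555. The S-phase factor gene E2f1 had 0 in replicate 1 and 24 fragments in replicate 2, and CycE had no deep summit in either.

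Markers of other tissues gave 3 of 7 for glia, 2 of 12 for muscle and 0 of 10 for epidermis and trachea. The intervals of these shares were 9.90 to 81.6%, 2.09 to 48.4% and 0 to 30.8%. Like territory gave 21.4%, 24.4% and 17.9%, in the same order. The glial hosts pnt, loco and Lac are not exclusive to glia, and in none of the 3 were the replicates within 500 bp of each other. The highest summits of loco, 55 and 130 fragments, were 3531 bp apart, and those of Lac, 55 and 77, were 702 bp apart. Of the muscle list Msp300 had 2 and 3 deep summits and mspo 2 and 1. For each of these 15 lists the interval of its share included the share at like territory.

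**Figure D5:**
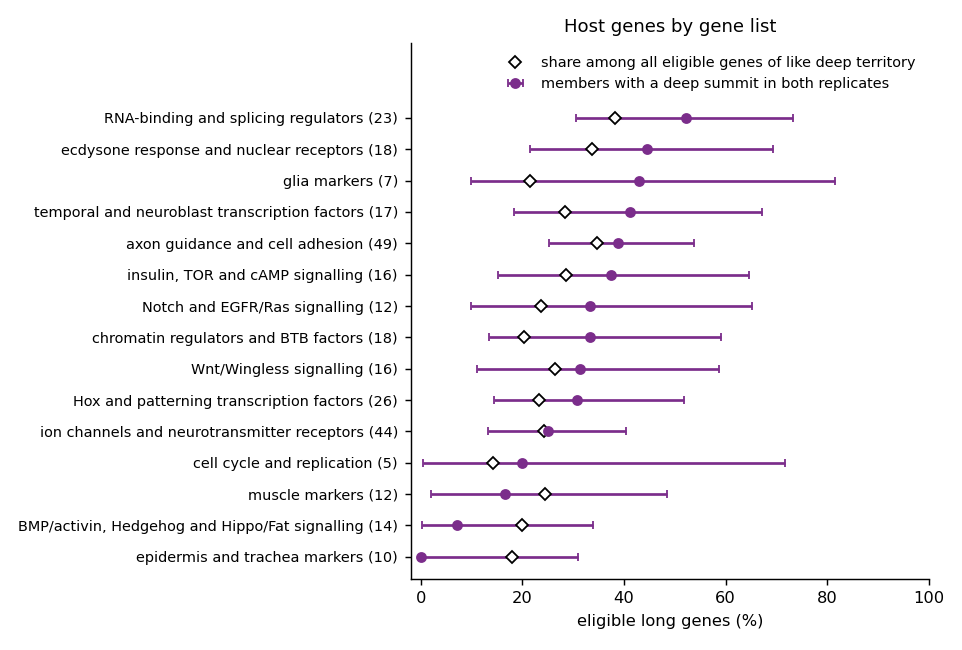
Share of eligible long genes with a deep summit in both replicates for each of 15 gene lists (horizontal axis in percent, number of eligible members in brackets), with 95% exact intervals; diamonds give the share among all eligible genes of like deep territory. RNA-binding regulators stand highest at 52.2% with a diamond at 38.3%, epidermis and trachea lowest at 0 with 17.9%, and every interval includes its diamond.

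Non-coding genes, which the rule did not use, lay near a small part of the deep summits. In replicate 1 48 of 626 (7.67%, interval 5.71 to 10.04%) and in replicate 2 81 of 1056 (7.67%, 6.14 to 9.44%) were within 1000 bp of one, while 4.41% of deep territory is as near. Among all arm summits the shares were 11.2% and 10.6%. Most were long non-coding RNA genes, with 36 and 63 summits (5.75%, interval 4.06 to 7.87%, and 5.97%, 4.61 to 7.57%). Of deep territory 3.15% is as near, and of all arm summits 6.44% and 6.56% were. MicroRNA genes were near 4 and 6 deep summits (0.639%, interval 0.174 to 1.63%, and 0.568%, 0.209 to 1.23%). Both intervals include the 0.237% of deep territory that is as near, and over all arm summits the shares were 0.665% and 0.684%. At mir-4978 inside mam the summits lay 151 and 162 bp away with 120 and 97 fragments, and at mir-2282 inside sty they lay 57 and 39 bp away. Both replicates also had deep summits near mir-967 in bun (40 and 50 fragments) and near mir-307a and mir-307b in Mmp2 (42 and 37). These microRNAs and summits were named after their values were seen.

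Chromosome 4 had the densest deep summits of the arms and X the sparsest, though in replicate 1 X was close to 3R (11.1 and 11.4 per Mb). Deep summits per Mb of deep territory ranged from 11.1 on X to 14.7 on 2L in replicate 1 and from 15.9 on X to 23.7 on 2L in replicate 2, and were 22.1 and 30.0 on chromosome 4. X was low over its whole length too, at 17.2 and 21.4 summits per Mb, and chromosome 4 high at 38.7 and 50.8. On chromosome 4 the numbers were 14 and 19 deep summits, of which 6 in each replicate were paired.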

How the data were processed

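The deposited lists hold, per sample, summit positions of 1 bp and a signal that the authors' peak caller gave, the pileup height in fragments. The submitters' processing notes name Bowtie2 2.2.6, MACS 1.4.2, bcl2fastq 2.19.0.316 and the build dm6. Control use, cutoffs and duplicate filters are not given in the sources used here. Positions were made 1-based and compared with a gene table from RefSeq (assembly Release 6 plus ISO1 MT, equal to dm6), which has 13922 protein-coding genes on the arms. Strand, exons and genome sequence were not used here, so no sequence is printed and introns are not told from exons. Replicate numbers follow the order of deposit.

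The length of an arm was taken as its last position with a gene or summit. A share at like territory averages, over a list's members, the share among all eligible genes of the same class of deep territory. The 16 lists held 480 terms, of which 5 were not found. The result of 1 list is not reported here, which leaves 15. Members, lists and tests were chosen with earlier results of these data known. Genes named were the 12 with the highest deep pairs, the 8 with most deep summits, up to 4 per list, the 5 longest, the 5 longest without deep summits and fixed names; others are marked. SciPy 1.17.1 gave the intervals, and Python 3.11.15, pandas 2.3.3, numpy 2.4.6 and matplotlib 3.10.9 the rest. The assignment of positions was tested on simulated data.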

Additional observations from a re-analysis of the deposited data

How the results depend on the processing

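Of 87 values under other settings, 64 stayed within the 95% interval of the reported value or, for counts, within 1.5 times. Shares and densities took the exact binomial interval, and median height percentiles the interval of the median from its order statistics. The share of arm summits follows the rule itself. In replicates 1 and 2 it was 23.7% and 26.8% with gene spans of 5000 bp or more, 17.9% and 20.4% with 20000 bp, 25.7% and 28.0% at 1000 bp from gene ends, 19.6% and 21.98% at 3000 bp, 15.3% and 17.1% at 5000 bp, 20.1% and 22.9% with ends of all genes, and 18.3% and 20.5% for summits above the median height. The density ratio stayed below 1 in every setting run. It left the interval above the median height (0.483 and 0.541) and at 5000 bp in replicate 2 (0.613). The paired share was 70.3% and 44.6% within 1000 bp, and 42.6% in replicate 2 above the median height. The number of host genes in both replicates was 182 and in either 390 above the median height, against 369 and 723. With 1 replicate left out the hosts numbered 445 (without replicate 2) to 647. The window at the centromeres was added after the values were seen and moved none of these. No paired analysis was possible because the labels number no replicates and a single group has lists. Unknown depth limits what a missing summit means.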

Other observations

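Some deep pairs had ratios of their unscaled heights far from the median ratio of 1.14 (replicate 2 over replicate 1). At CG13003 on X replicate 1 had 127 fragments and replicate 2 had 29, at Pura on 3L 110 and 26, at klar on 3L 76 and 20 and at CG34377 on 3R 230 and 66. In the other direction, rg had a pair of 20 and 52 fragments and puc one of 32 and 76. These pairs were picked for their ratio after the values were seen.

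Of the deep summits in the highest 10% of their list, 5 of 40 in replicate 1 and 9 of 58 in replicate 2 had no partner. The same share over all arm summits is not given here. Unpaired deep summits numbered 214 and 642 in all. The highest were at Sin3A in replicate 1 (201 fragments at 12587820 on 2R), 5206 bp from the nearest summit of replicate 2, and at Rbp6 in replicate 2 (161 fragments at 17179909 on 3L), 99190 bp from the nearest of replicate 1. In SKIP an unpaired summit of 151 fragments in replicate 2 at 22292685 on 3R lay 194 bp from mir-1010.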
